A study of Mus musculus with 12 samples.

Results

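Mnx1 and Nom1 are neighbouring genes that lie beyond the Lmbr1 end of the Shh regulatory domain on mouse chromosome 5, and their contacts were followed here in 5 groups of cells. The contacts were all fragment pairs with the midpoint of 1 fragment between 29745000 and 29820000 (mm9) and the other fragment outside that stretch or across the split at 29782500, which parts the Nom1 window from the Mnx1 window. They came to 6520 of the 57970 pairs of fragments listed in every file, from 20 of 341 HindIII fragments. Of them, 3251 were above 0 in at least 1 library, against 28980 over the whole region. A pair at 0 in every library may be one that the assay could not read, so its 0 is not taken as a measured lack of contact. The Nom1 window and the Mnx1 window held 10 fragments each, and 49 of the pairs above 0 joined the windows with each other.

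The assay was 5C, in which crosslinked chromatin is cut with HindIII and religated, and oligonucleotides that meet at a ligated junction are joined, amplified and sequenced. All cells derived from 46c, a mouse embryonic stem cell line that carries a green fluorescent reporter of neural fate. The groups were untransfected 46c embryonic stem cells (ESC, 2 biological replicates), neural progenitor cells made from them by 7 days in N2B27 medium (NPC, 2), and transfected 46c stem cells labelled tSBE6-Vp64 (1), tSBE2-Vp64 (1) and tSBE(6+2-Vp64) (2). These names are taken to mean TALEs, designed DNA-binding proteins, that carry the Vp64 activator to SBE6, to SBE2 or to both, which are neural enhancers of Shh. Cells given such proteins without Vp64 were not analysed here, the labels give no share of cells transfected, and no RNA was measured, so the labelled cell types were not checked against marker genes.

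Mnx1 encodes a homeobox transcription factor of motor neurons and the pancreas, and Nom1 a nucleolar protein that acts in ribosome biogenesis in most cells. Chromatin is folded into domains within which fragments meet more often than across their edges, and the Shh domain runs from Shh, which encodes a secreted patterning protein, to Lmbr1, whose intron holds the limb enhancer ZRS. Shh, En2 and Mnx1 are developmental genes known as Polycomb targets in mouse stem cells. In the RefSeq gene table (GRCm38.p6) the protein-coding genes follow in the order Rnf32, Lmbr1, Nom1, Mnx1 and Ube3c.

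The stretch just before the start of each gene is shown because the windows are named for these genes and the enzyme's site decides where a window can be cut. Capitals mark CG dinucleotides, and the sequences are those of RefSeq in GRCm38.p6, the 250 bases before the annotated start read 5′ to 3′ along the gene; the 5C coordinates are mm9, and the builds are not interchangeable. The Nom1 stretch lies at chr5:29434417-29434666 on the plus strand and the Mnx1 stretch at chr5:29478471-29478720 on the minus strand.
Nom1: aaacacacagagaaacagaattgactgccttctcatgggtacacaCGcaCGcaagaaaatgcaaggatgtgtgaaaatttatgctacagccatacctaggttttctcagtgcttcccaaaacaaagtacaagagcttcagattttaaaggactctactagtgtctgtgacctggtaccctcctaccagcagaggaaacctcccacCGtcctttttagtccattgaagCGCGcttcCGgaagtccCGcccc
Mnx1: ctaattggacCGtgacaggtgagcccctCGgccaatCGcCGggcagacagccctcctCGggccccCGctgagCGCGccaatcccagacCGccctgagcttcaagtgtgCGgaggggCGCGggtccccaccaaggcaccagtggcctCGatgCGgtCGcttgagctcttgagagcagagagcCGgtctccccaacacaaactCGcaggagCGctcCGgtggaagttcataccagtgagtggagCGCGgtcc
The Mnx1 stretch held 21 CG dinucleotides and 66.4% G and C, and the Nom1 stretch 7 and 47.2%. Among 32851 RefSeq promoter stretches of that length, 16.3% held at least as many CG as Mnx1 and 46.3% at least as many as Nom1. Neither held the HindIII site AAGCTT, which reads alike on both strands and occurred in 6.22% of the stretches.

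Signal is given as reads of a fragment pair per 1000 reads of the library, and a contact of 2 windows as the mean signal over its fragment pairs. Low values were whole multiples of a step in each library, which implies about 978050 to 48144333 reads per library over the region. Between 21347 and 1364006 of them joined the Nom1 window with the rest, and 124235 to 7855057 the Mnx1 window. The shallowest libraries were both of NPC: replicate 1, technical replicate 2 (978050 reads) and replicate 2 (1870325). The ESC libraries had 21952261 and 20657353. NPC replicate 2 rests on its shallow library alone, and NPC replicate 1 averages its shallow library with 1 of 43175691 reads. Depth thus went with group for these libraries. The share of the 3251 pairs above 0 ran from 26.1% to 99.1%, both in libraries of tSBE(6+2-Vp64); technical replicate 1 of its replicate 1, at the upper end, stood apart from the other 3. The ESC replicates had 81.5% and 43.5% at nearly equal depth. The 12 files held 11 distinct libraries, since the NPC library of replicate 1, technical replicate 1 was deposited again under replicate 2 and was counted once. A group of 21 fragment pairs over 50 kb apart each held over 0.5% of at least 1 library; 6 of them are pairs of these windows, 4 of Mnx1 and 2 of Nom1. In cell populations, more alleles in contact and a more frequent contact per allele cannot be told apart.

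The Mnx1 window took a far larger part of the signal in NPC than in ESC, whereas the part of the Nom1 window was nearly the same in both. Of each library's signal, the Mnx1 window held 2.50% and 6.28% in the ESC replicates, 15.4% and 13.7% in NPC, 2.93% in tSBE6-Vp64, 10.2% in tSBE2-Vp64, and 5.23% and 5.88% in tSBE(6+2-Vp64). Both NPC replicates and tSBE2-Vp64 lay above both ESC replicates; the ESC replicates themselves differed widely, and tSBE6-Vp64 and tSBE(6+2-Vp64) fell between them. The Nom1 window held 1.90% ± 0.341 (SD, n = 2) in ESC, 2.13% ± 0.0525 (SD, n = 2) in NPC, 2.05% in tSBE6-Vp64, 2.08% in tSBE2-Vp64 and 2.52% ± 0.705 (SD, n = 2) in tSBE(6+2-Vp64). With 2 replicates in each of 2 groups the smallest p of an exact permutation test is 0.333, so the shares are given without a test.

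Nearly all of the excess of the Mnx1 window rested on the 4 high long-range pairs. They held 0.0794% and 4.68% of the ESC replicates and 14% and 12.2% of the NPC replicates. With the 21 pairs left out, the remaining pairs of the Mnx1 window made up 2.42% and 1.84% of the remaining signal in ESC, 2.68% and 2.59% in NPC, 2.25% in tSBE6-Vp64, 2.72% in tSBE2-Vp64, and 3.21% and 1.87% in tSBE(6+2-Vp64). On that footing the Nom1 window held 2.15% and 1.83% in ESC and 2.32% and 2.39% in NPC, close to the Mnx1 window. Among the 46 bins of that width, the Mnx1 window ranked 14 and 2 for signal in ESC and 1 in both NPC replicates; without the 21 pairs it ranked 16 and 25 in ESC and 24 and 20 in NPC. The Nom1 window ranked from 21 to 30 with all pairs.

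**Figure D1:**
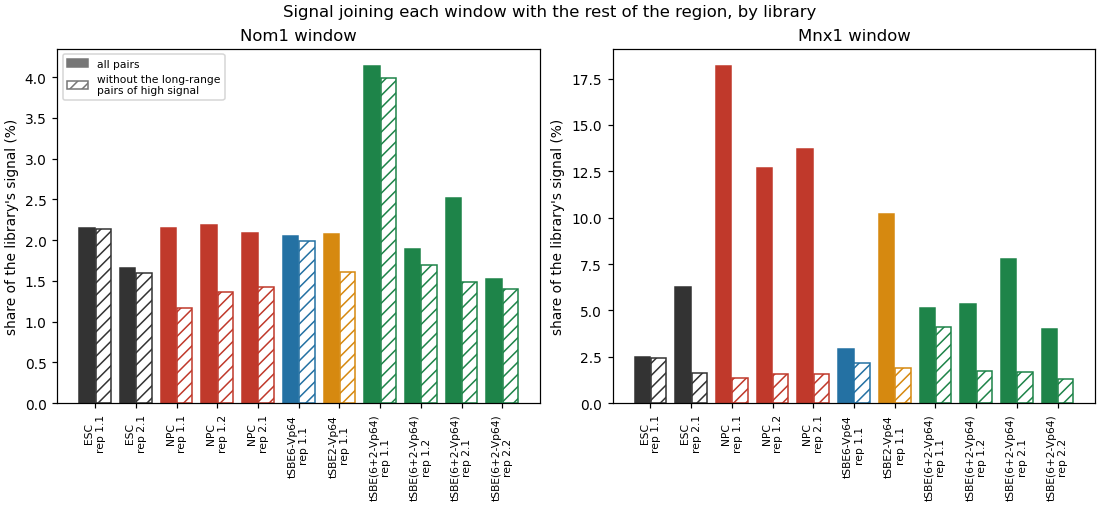
Share of each library's signal (%) that joined the Nom1 window (left) or the Mnx1 window (right) with the rest of the region, 1 bar per library, labelled by biological and technical replicate; filled bars hold all pairs and hatched bars leave out the long-range pairs of high signal. The 3 NPC libraries reach 12.7% to 18.2% for Mnx1 with all pairs and 1.35% to 1.58% without those pairs.

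Of the high pairs of the Mnx1 window, 3 met at fragment Shh_491 (29806189 to 29807449), which alone held 68.9% of the window's signal, taken as the mean of the 5 groups. The highest joined Shh_491 with Shh_458 (29703904 to 29705290), 102 kb away in the Lmbr1 promoter window. Its signal per 1000 was 0.438 and 24.8 in the ESC libraries, 128, 79.0 and 89.8 in NPC, 5.26 in tSBE6-Vp64, 58.8 in tSBE2-Vp64, and 7.75, 23.8, 28.6 and 10.1 in tSBE(6+2-Vp64). All 3 NPC libraries and tSBE2-Vp64 lay above every other library, and the ESC libraries stood far apart. In NPC replicate 1, technical replicate 1, this pair alone held 12.8% of the library and stood above the average of 22 other pairs up to 3 fragments from it at either end, long-range high pairs aside, by 11442-fold.

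Shh_491 with Shh_460 (29706211 to 29709705) had 0.197 and 17.4 in the ESC libraries, 12.6, 14.2 and 18.0 in NPC, 0.583 in tSBE6-Vp64, 10.8 in tSBE2-Vp64, and 0.233, 6.41, 10.4 and 12 in tSBE(6+2-Vp64). Here ESC replicate 2 lay within the NPC range, and ESC replicate 1 and 1 library of tSBE(6+2-Vp64) lay lowest. Shh_491 with Shh_463 (29713093 to 29716181) had 0.113 and 1.02 in the ESC libraries, 9.95, 6.80 and 5.86 in NPC, 0.666 in tSBE6-Vp64, 2.80 in tSBE2-Vp64, and 0.171, 0.245, 1.68 and 1.18 in tSBE(6+2-Vp64). All 3 NPC libraries lay above the rest, and they include both technical replicates of NPC replicate 1. Only NPC libraries carried this pair past the share of a library that defined the high pairs. Their standing highest therefore follows in part from how the pair was chosen. The fourth joined Shh_494 (29815594 to 29816516) with Shh_128 (28723250 to 28724961), 1092 kb away between Rbm33 and Shh, and had 0.0456 and 3.54 in the ESC libraries, 17.6, 11.2 and 7.98 in NPC, 1.03 in tSBE6-Vp64, 11.1 in tSBE2-Vp64, and 1.83, 5.68, 20.1 and 3.64 in tSBE(6+2-Vp64). Its highest value fell in a library of tSBE(6+2-Vp64), and ESC replicate 1 was lowest. The pairs of the adjoining Shh_490 and Shh_492 with Shh_458, Shh_460 and Shh_463 were at 0 in all 11 libraries. Only 28980 of the 57970 pairs of the region were above 0 in any library, so these may be pairs that the assay could not read. Their 0s therefore do not show that the adjoining fragments lacked contact. Among the next fragments out, Shh_493 with Shh_458 had 0.0341 and 0.0449 in NPC, and Shh_489 with Shh_458 had 0.0199 and 0.0257.

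The Nom1 window had 2 such pairs. Shh_477 (29768741 to 29769326) with Shh_32 (28428927 to 28447705), 1331 kb away between Insig1 and En2, had 0.00533 and 0.668 in the ESC libraries, 6.40, 5.50 and 3.75 in NPC, 0.216 in tSBE6-Vp64, 4.03 in tSBE2-Vp64, and 0.925, 1.41, 4.19 and 0.785 in tSBE(6+2-Vp64). Shh_482 (29777534 to 29781541) with Shh_158 (28821671 to 28827662), 955 kb away in the sequence between Shh and SBE6, had 0.0178 and 0.0217 in the ESC libraries, 3.37, 2.74 and 2.95 in NPC, 0.315 in tSBE6-Vp64, 0.720 in tSBE2-Vp64, and 0.613, 0.623, 6.20 and 0.407 in tSBE(6+2-Vp64). For this last pair both ESC libraries lay below all others, and 1 library of tSBE(6+2-Vp64) was highest. Shh_477 with Shh_32 passed the share that defined the high pairs only in the libraries of NPC replicate 1. In its highest library each of the 6 pairs stood above the average of the surrounding pairs by 366-fold to 11442-fold. Since a high value in at least 1 library chose these pairs, the ratios and the order of the libraries only describe them. Whether each is a contact of chromatin or a product of the assay was not tested.

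**Figure D2:**
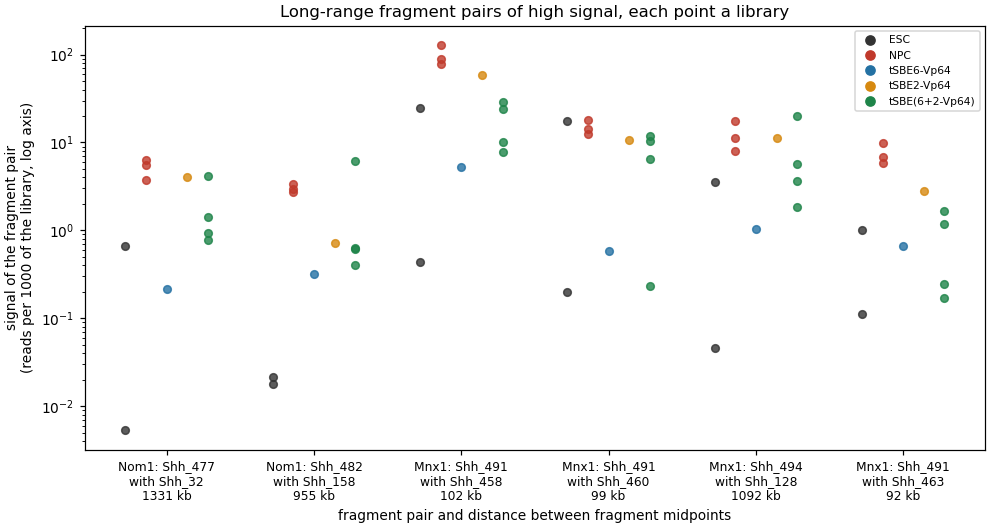
Signal of the 6 long-range fragment pairs of high signal (reads per 1000, log axis), each point a library, coloured by group. The 3 NPC libraries lie between 79.0 and 128 for Shh_491 with Shh_458, where the ESC libraries have 0.438 and 24.8.

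The next pairs of the ranking were short-range or weaker. Shh_470 with its neighbour Shh_468, 6.11 kb apart across the outer edge of the Nom1 window, had 1.22 and 1.28 in ESC, 0.266 and 0.603 in NPC, 1.13 in tSBE6-Vp64, 0.607 in tSBE2-Vp64, and 0.608 and 1.28 in tSBE(6+2-Vp64), so both NPC replicates and tSBE2-Vp64 lay below both ESC replicates. Shh_493 with Shh_496, 15.3 kb apart across the outer edge of the Mnx1 window, had 1.01 and 0.550 in ESC, 0.338 and 0.328 in NPC, 1.07 in tSBE6-Vp64, 0.526 in tSBE2-Vp64, and 0.365 and 1.04 in tSBE(6+2-Vp64), and here too both NPC replicates and tSBE2-Vp64 lay below ESC. Per 1000 of the remaining signal the first pair still lay lower in NPC (1.22 and 1.46 in ESC and 0.493 and 1.01 in NPC), and the second overlapped (1.01 and 0.631 in ESC and 0.633 and 0.551 in NPC). Shh_479 with Shh_411, 194 kb apart, had 0.00374 and 0.399 in ESC and 0.904 and 0.361 in NPC, and Shh_482 with Shh_510, 73.6 kb apart, 0.0907 and 0.203 against 0.277 and 0.141. In both of these the groups overlapped.

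Away from the high pairs, both windows met the sequence beside them most and the Shh domain little. Over the 40 pairs between the Nom1 window and the stretch from the Lmbr1 promoter to Nom1, mean signal was 0.0908 and 0.0757 in ESC, 0.0271 and 0.0422 in NPC, 0.0947 in tSBE6-Vp64, 0.0512 in tSBE2-Vp64, and 0.0762 and 0.0700 in tSBE(6+2-Vp64). For the Mnx1 window and that stretch, without the 21 pairs, it was 0.0541 and 0.0270 in ESC, 0.0215 and 0.0264 in NPC, 0.0454 in tSBE6-Vp64, 0.0238 in tSBE2-Vp64, and 0.0407 and 0.0219 in tSBE(6+2-Vp64). Per 1000 of the signal left without the 21 pairs, the Nom1 window had 0.0910 and 0.0869 in ESC and 0.050 and 0.0709 in NPC, so both NPC replicates lay below both ESC replicates on either scale. The Mnx1 window had 0.0542 and 0.0310 in ESC and 0.0394 and 0.0443 in NPC on that scale, and the groups overlapped.

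Toward Ube3c, which encodes a ubiquitin ligase, the Nom1 window had 0.0279 and 0.0137 in ESC, 0.0111 and 0.0137 in NPC, 0.0270 in tSBE6-Vp64, 0.0172 in tSBE2-Vp64, and 0.0352 and 0.0149 in tSBE(6+2-Vp64). The Mnx1 window had 0.0371 and 0.0210 in ESC, 0.0210 and 0.0205 in NPC, 0.0385 in tSBE6-Vp64, 0.0282 in tSBE2-Vp64, and 0.0425 and 0.0268 in tSBE(6+2-Vp64) on that side. For both windows tSBE(6+2-Vp64) replicate 1, which includes the library that stands apart, was highest, and ESC replicate 1 and tSBE6-Vp64 came next. Per 1000 of the remaining signal NPC and ESC overlapped for both windows.

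With the Shh domain, from Shh to the Lmbr1 promoter, mean signal without the 21 pairs was 0.00635 in ESC and 0.00638 in NPC for Nom1, and 0.00647 and 0.00560 for Mnx1. In tSBE(6+2-Vp64) it was 0.0116 and 0.00535 for Nom1 and 0.0120 and 0.00421 for Mnx1, with replicate 1, which includes the library that stands apart, above all other replicates. Per 1000 of the remaining signal, the Nom1 window had 0.00648 and 0.00715 in ESC and 0.0122 and 0.0102 in NPC with the domain, and the Mnx1 window 0.00721 and 0.00659 in ESC and 0.00967 and 0.00996 in NPC, so NPC lay above ESC on that scale for both. Beyond Shh, toward Insig1, the means in ESC were 0.00552 for Nom1 and 0.00833 for Mnx1, of the same order as with the domain. Per 1000 of the remaining signal NPC lay above ESC there too. Nom1 had 0.00639 and 0.00536 in ESC and 0.00970 and 0.0100 in NPC, and Mnx1 0.00989 and 0.00780 in ESC and 0.0148 and 0.0119 in NPC. Over all contacts tested without the 21 pairs the median NPC difference was log2 0.32, so the higher values were not particular to the domain. Over the 44 bins that both windows meet, their profiles had a Spearman rho of 0.459 to 0.749 in the 8 replicates, a description across bins that share library and distance.

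**Figure D3:**
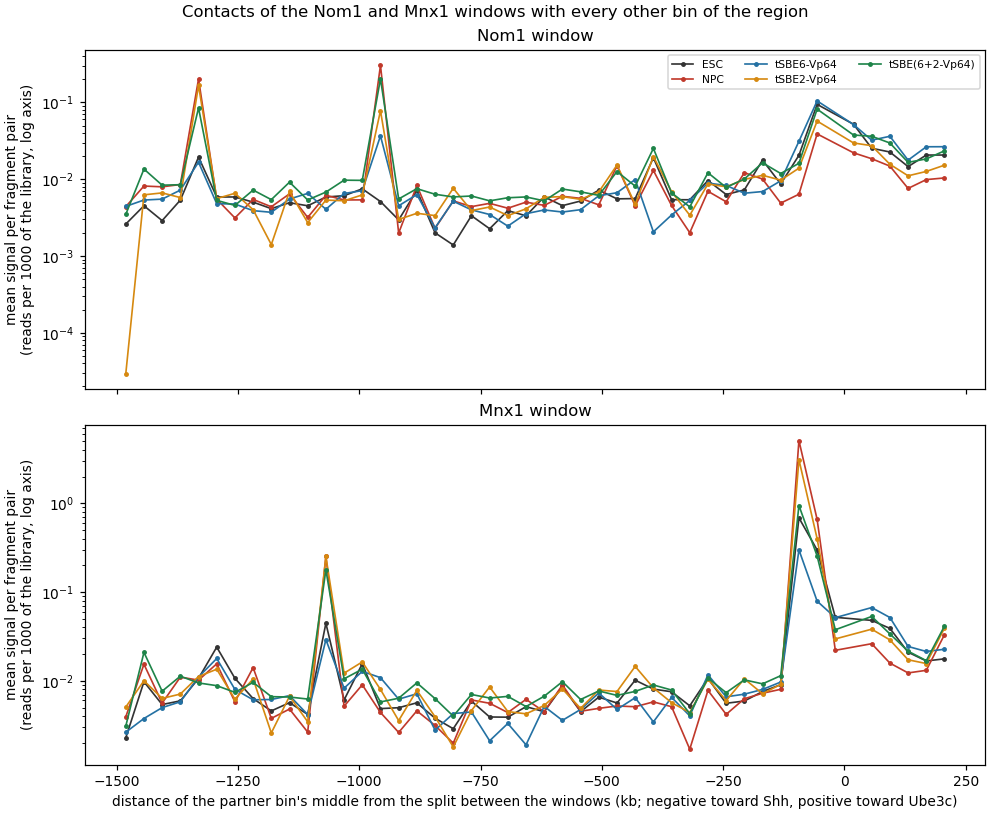
Mean signal per fragment pair (reads per 1000, log axis) of the Nom1 window (top) and the Mnx1 window (bottom) with every other bin of 37.5 kb, against the distance of the bin's middle from the split between the windows (kb); lines are group means. Signal rises toward the windows, and the peaks far from them stand over the bins of the 6 high pairs, such as 5.10 in NPC against 0.686 in ESC for Mnx1 with the bin of the Lmbr1 promoter.

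The contact between the 2 windows was lower in NPC than in ESC in every replicate, without passing the test. Over 49 fragment pairs, Nom1 with Mnx1 had 0.0596 and 0.0442 in ESC, 0.0162 and 0.0279 in NPC, 0.0515 in tSBE6-Vp64, 0.0296 in tSBE2-Vp64, and 0.0457 and 0.0295 in tSBE(6+2-Vp64). The NPC replicates and tSBE2-Vp64 lay below both ESC replicates, and tSBE6-Vp64 lay between them. Against ESC (0.0519 ± 0.0109 (SD, n = 2)) the differences on the log2(signal + 0.00273) scale were -1.17 for NPC (SE 0.61, 95% interval -2.37 to 0.031, adjusted p = 0.510 by limma), 0.00258 for tSBE6-Vp64 (SE 0.75, adjusted p = 0.998), -0.74 for tSBE2-Vp64 (SE 0.75, adjusted p = 0.999) and -0.45 for tSBE(6+2-Vp64) (SE 0.61, adjusted p = 0.997). Since signal is a share of the library and the 21 pairs took 40.5% to 49.7% of the NPC libraries, less was left for every other contact there; without the 21 pairs the NPC difference was -0.52, against a median of 0.32 over all contacts tested in that setting. Per 1000 of the remaining signal Nom1 with Mnx1 had 0.0598 and 0.0507 in ESC and 0.0296 and 0.0469 in NPC. Within the Nom1 window the fragments Shh_474, Shh_482 and Shh_483 carried 18.8%, 19.9% and 19.1% of this contact, as means of the 8 replicates.

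Among 13 elements of the locus, taken as stretches of 40 kb centred on positions known only approximately in mm9, the Nom1 window met Mnx1, the Lmbr1 promoter and Ube3c most in ESC, and its contacts with the Shh domain were close to each other. Nom1 with the Lmbr1 promoter, 58.8 kb away, had 0.0534 and 0.0376 in ESC, 0.0165 and 0.0225 in NPC, 0.0594 in tSBE6-Vp64, 0.0298 in tSBE2-Vp64, and 0.0507 and 0.0288 in tSBE(6+2-Vp64); in NPC both replicates lay below both in ESC (a log2 difference of -1.11 with SE 0.61 and limma adjusted p = 0.570, or -0.46 without the 21 pairs). Nom1 with Ube3c had 0.0218 ± 0.0118 (SD, n = 2) in ESC and 0.0108 ± 0.00137 in NPC. In ESC Mnx1 and the Lmbr1 promoter differed by less than their SD, and Ube3c, at 181 kb, lay above ZRS, the limb enhancer, at 122 kb.

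Nom1 with Shh had 0.00939 and 0.00559 in ESC, 0.00587 and 0.00488 in NPC, 0.00709 in tSBE6-Vp64, 0.00625 in tSBE2-Vp64, and 0.0129 and 0.00641 in tSBE(6+2-Vp64); the groups overlapped (a log2 difference of -0.31 with SE 0.64 and limma adjusted p = 0.995 for NPC). With the neural enhancers the contact of Nom1 in ESC was 0.00524 ± 0.00115 for SBE6, 0.00621 ± 0.00130 for SBE4 and 0.00456 ± 0.00226 for SBE2 (SD, n = 2 each). In NPC they were 0.00542, 0.00620 and 0.00665. The differences of NPC from ESC were log2 0.036 (SE 0.67), -0.00883 (SE 0.65) and 0.40 (SE 0.67), all smaller than their SE; without the 21 pairs they were 0.52, 0.49 and 0.89, none past the threshold. With ZRS, Nom1 had 0.00939 and 0.00581 in ESC and 0.00424 and 0.00533 in NPC (a log2 difference of -0.44 with SE 0.64 and limma adjusted p = 0.991, or 0.051 without the 21 pairs).

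Where the activators were aimed, the Nom1 contact did not pass the test either. Nom1 with SBE6 was 0.00549 in tSBE6-Vp64 (a log2 difference of 0.051 with SE 0.82 and limma adjusted p = 0.998), within the ESC replicates (0.00443 and 0.00606). Nom1 with SBE2 was 0.00433 in tSBE2-Vp64 (log2 -0.01, SE 0.82, adjusted p = 0.999 by limma), also within them. In tSBE(6+2-Vp64) the 2 replicates had 0.0107 and 0.00250 for SBE6, on either side of ESC, and 0.0116 and 0.00321 for SBE2, the first above ESC and the second between its replicates. The other elements, Insig1, En2, Cnpy1, Rbm33 and Rnf32, ranged in ESC from 0.00455 to 0.00667 as group means and in NPC from 0.00463 to 0.0121, the last with Insig1, a regulator of sterol synthesis, where both NPC replicates (0.0121 and 0.0121) lay above both ESC replicates (0.00935 and 0.00281) without passing the test (log2 0.86, adjusted p = 0.790 by limma).

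In ESC the Mnx1 window met Shh and En2, a homeobox gene of the midbrain and hindbrain, at levels close to that of the far nearer Ube3c. Once the 21 pairs were left out, the lower values of NPC for both genes were nearly gone per 1000 of the remaining signal. Set against the mean at the same distance, given below, both NPC replicates still lay below both ESC replicates for both genes. In ESC, Mnx1 met the Lmbr1 promoter and Nom1 most; Ube3c (0.0179 ± 0.00307 (SD, n = 2)), En2 (0.0179 ± 0.00532 (SD, n = 2)) and Shh (0.0156 ± 0.00224 (SD, n = 2)) came next and did not differ beyond their spread, and the other 8 elements were lower. Mnx1 with Shh had 0.0172 and 0.0140 in ESC, 0.00782 and 0.0102 in NPC, 0.0128 in tSBE6-Vp64, 0.0163 in tSBE2-Vp64, and 0.0158 and 0.0113 in tSBE(6+2-Vp64). Both NPC replicates, tSBE6-Vp64 and 1 replicate of tSBE(6+2-Vp64) lay below both ESC replicates. Mnx1 with En2 had 0.0217 and 0.0141 in ESC, 0.00893 and 0.0122 in NPC, 0.0132 in tSBE6-Vp64, 0.00992 in tSBE2-Vp64, and 0.00868 and 0.00352 in tSBE(6+2-Vp64), and every replicate outside ESC lay below both ESC replicates. None of these differences passed the test: for Mnx1 with Shh they were log2 -0.64 in NPC (SE 0.62, adjusted p = 0.913 by limma), -0.23 in tSBE6-Vp64, 0.063 in tSBE2-Vp64 and -0.18 in tSBE(6+2-Vp64). For Mnx1 with En2 they were -0.62 in NPC (SE 0.62, adjusted p = 0.928 by limma), -0.34 in tSBE6-Vp64, -0.68 in tSBE2-Vp64 and -1.26 in tSBE(6+2-Vp64) (SE 0.62, adjusted p = 0.947 by limma). Without the 21 pairs the NPC difference was -0.069 for Shh and -0.03 for En2, against a median of 0.32 over all contacts tested in that setting. Per 1000 of the remaining signal Mnx1 with Shh had 0.0172 and 0.0160 in ESC and 0.0143 and 0.0171 in NPC. Mnx1 with En2 had 0.0217 and 0.0162 in ESC and 0.0164 and 0.0205 in NPC on that scale, and the groups overlapped for both.

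Set against the mean of the library at the same distance, with the 21 pairs left out, Mnx1 with Shh stood at 2.32 and 1.96 in ESC, 0.807 and 1.22 in NPC, 1.68 in tSBE6-Vp64, 1.64 in tSBE2-Vp64, and 1.14 and 1.67 in tSBE(6+2-Vp64), above 1 in 7 of 8 replicates. Nom1 with Shh stood above 1 in 1 of 8 (0.508 to 1.16). Mnx1 with En2 stood at 2.90 and 1.90 in ESC, 0.880 and 1.36 in NPC, 1.92 in tSBE6-Vp64, 0.917 in tSBE2-Vp64, and 0.518 and 0.530 in tSBE(6+2-Vp64), and Nom1 with En2 at 0.0194 to 0.743. Mnx1 with SBE6, the nearest to Shh of the 3 enhancers, stood below 1 in all 8 replicates, at 0.329 to 0.814, as did Mnx1 with ZRS, at 0.376 to 0.705, and Nom1 with ZRS, at 0.301 to 0.589. Nom1 with Mnx1 itself stood at 0.347 to 0.820. Standing above 1 was not particular to Mnx1 with Shh and En2. Mnx1 with the Lmbr1 promoter stood above 1 in 7 of 8 replicates, at 1.39 and 1.32 in ESC and 1.34 and 1.48 in NPC. Mnx1 with Cnpy1 stood at 1.25 and 1.30 in ESC, and Nom1 with Insig1 above 1 in 5 of 8 replicates.

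**Figure D4:**
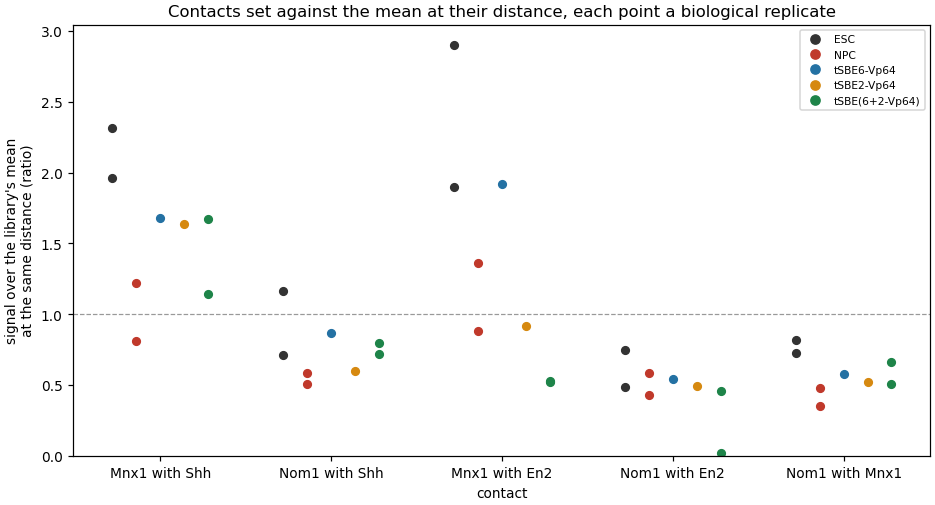
Contact divided by the library's mean signal at the same distance (ratio, dashed line at 1; the long-range pairs of high signal left out), each point a biological replicate, for Shh and En2 with each window and for Nom1 with Mnx1. Mnx1 with Shh and with En2 stand at 1.90 to 2.90 in ESC, whereas Nom1 with the same elements stands at 0.483 to 1.16.

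Single fragments carried these contacts unequally. Shh_493 (29809880 to 29815593), Shh_490 (29805363 to 29806188) and Shh_491 carried 26.6%, 23.5% and 20.2% of Mnx1 with Shh, as means of the 8 replicates. Shh_493 with the Shh window had 0.0539 and 0.0377 in ESC, 0.0265 and 0.0232 in NPC, 0.0306 in tSBE6-Vp64, 0.0294 in tSBE2-Vp64, and 0.0249 and 0.0217 in tSBE(6+2-Vp64). Both ESC replicates were the highest. With En2, Shh_493 had 0.0470 and 0.0336 in ESC, 0.00822 and 0.00952 in NPC, 0.0219 in tSBE6-Vp64, 0.00882 in tSBE2-Vp64, and 0.0158 and 0.00708 in tSBE(6+2-Vp64), again highest in both ESC replicates, whereas Shh_487 (29786563 to 29787575) had 0.00937 and 0.0224 in ESC and 0.0348 and 0.0330 in NPC, the opposite order. Per 1000 of the remaining signal Shh_493 with Shh overlapped between ESC and NPC (0.0540 and 0.0433 in ESC and 0.0487 and 0.0390 in NPC), whereas Shh_493 with En2 stayed lower in NPC (0.0472 and 0.0386 in ESC and 0.0151 and 0.0160 in NPC) and Shh_487 with En2 higher (0.00939 and 0.0257 in ESC and 0.0637 and 0.0555 in NPC). These fragments were singled out after their values were seen, and each value rests on 5 fragment pairs.

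With the neural enhancers Mnx1 had 0.00534 ± 0.00117 for SBE6, 0.00646 ± 3.84e-04 for SBE4 and 0.00790 ± 0.00320 for SBE2 in ESC, and 0.00370, 0.00397 and 0.00810 in NPC (n = 2 each). The differences were log2 -0.33 (SE 0.67), -0.48 (SE 0.67) and 0.056 (SE 0.64), with adjusted p of 0.995, 0.991 and 0.999 by limma. For SBE6 and SBE4 both NPC replicates lay below both ESC replicates. Without the 21 pairs the differences were 0.12, -0.027 and 0.58, and per 1000 of the remaining signal the groups overlapped for SBE6 and SBE4. For SBE2 both NPC replicates lay above both ESC replicates on that scale (0.00565 and 0.0117 in ESC, 0.0133 and 0.0150 in NPC). Set against the mean at the same distance, both NPC replicates still lay below both ESC replicates for SBE6 and SBE4. With ZRS the values were 0.0107 and 0.00605 in ESC, 0.00542 and 0.00881 in NPC, 0.00906 in tSBE6-Vp64, 0.00785 in tSBE2-Vp64, and 0.0149 and 0.00480 in tSBE(6+2-Vp64), and the groups overlapped.

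In the activator groups, Mnx1 with SBE6 was 0.00672 in tSBE6-Vp64 (a log2 difference of 0.23 with SE 0.81 and limma adjusted p = 0.998), just above the ESC replicates (0.00617 and 0.00452). Mnx1 with SBE2 was 0.00645 in tSBE2-Vp64 (a log2 difference of -0.18 with SE 0.78 and limma adjusted p = 0.999), within them. In tSBE(6+2-Vp64) the replicates had 0.0127 and 0.00346 with SBE6 and 0.0114 and 0.00699 with SBE2, and for SBE6 they lay on either side of ESC. The remaining elements had ESC means of 0.00380 with Rbm33, 0.00558 with Rnf32, 0.00727 with Insig1, 0.00936 with Cnpy1 and 0.0179 with Ube3c, and none differed from ESC past the threshold in any group.

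**Figure D5:**
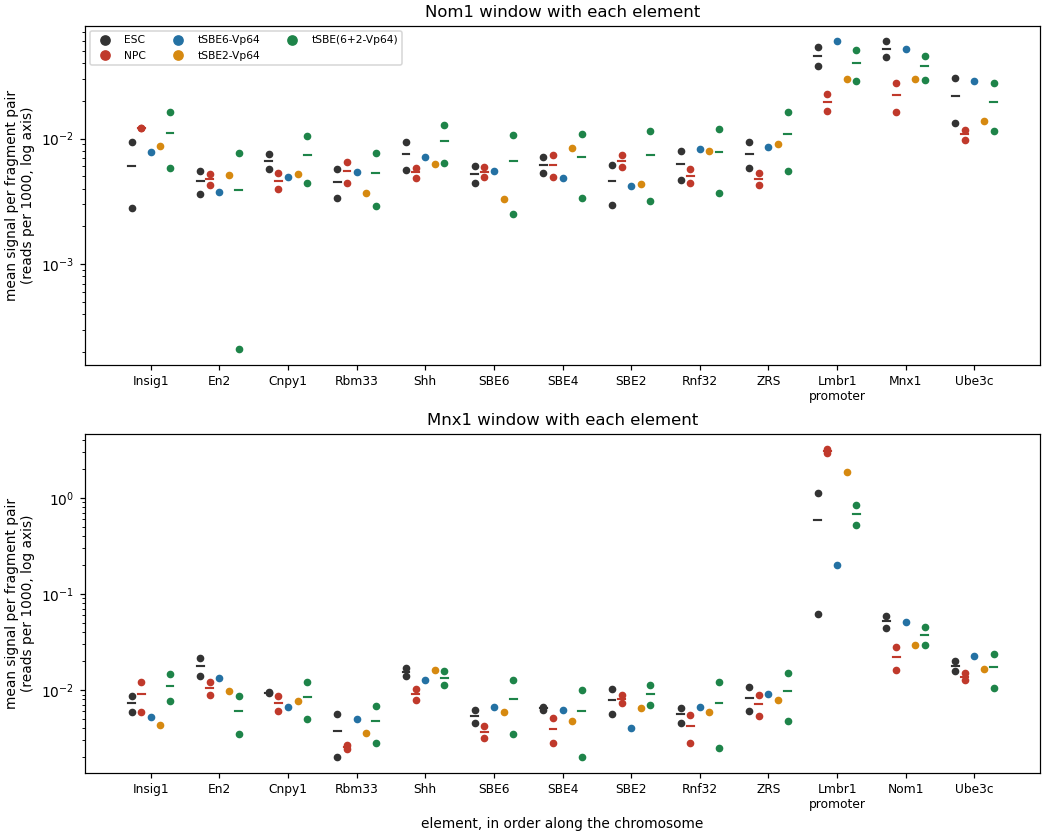
Mean signal per fragment pair (reads per 1000, log axis) of the Nom1 window (top) and the Mnx1 window (bottom) with each element in order along the chromosome; points are biological replicates and short lines the means of groups with 2. Mnx1 with the Lmbr1 promoter stands out at 2.94 and 3.23 in NPC, and the 2 ESC replicates, 0.0615 and 1.13, lie far apart.

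The test took log2(signal + 0.00273) and covered every pair of bins of 37.5 kb laid from the split and every pair among the 14 elements, 1168 contacts in all, of which 89 bin pairs and 24 element pairs belong to these windows. The 4 comparisons share the 2 ESC replicates. In NPC, 4 of the 89 bin pairs and 1 of the 24 element pairs rose and 0 fell at an adjusted p of 0.05 by limma; 7 bin pairs had an unadjusted p under 0.05. Over all 1168, 2.65% rose and 0.342% fell. The median difference was log2 -0.088 over the 89 bin pairs and -0.19 over all contacts tested. Lower than both ESC replicates in both NPC replicates were 32 of the 113 contacts (28.3%) and 32.2% of all 1168; higher were 17 (15.0%) and 15.3%.

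Each of the 4 bin pairs that rose held 1 of the 6 high pairs, and the element pair held 3, those of Shh_491 with Shh_458, Shh_460 and Shh_463. Nom1 with the bin from 28807501 to 28845000, between Shh and SBE6, had 0.00518 and 0.00505 in ESC, 0.308 and 0.299 in NPC, 0.0367 in tSBE6-Vp64, 0.0780 in tSBE2-Vp64, and 0.0715 and 0.334 in tSBE(6+2-Vp64) over its 10 pairs, and rose in NPC by log2 5.29 (SE 0.60, adjusted p = 4.03e-15 by limma). The pair Shh_482 with Shh_158 gave 99.2% and 98.7% of the NPC values and 34.4% and 42.9% of the ESC values. Nom1 with the bin from 28432501 to 28470000, between Insig1 and En2, had 0.00496 and 0.0338 in ESC, 0.245 and 0.158 in NPC, 0.0167 in tSBE6-Vp64, 0.166 in tSBE2-Vp64, and 0.0614 and 0.108 in tSBE(6+2-Vp64) and rose by log2 3.58 (SE 0.61, adjusted p = 4.16e-07), with 97.3% and 94.6% of the NPC values from Shh_477 with Shh_32.

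Mnx1 with the bin from 29670001 to 29707500, which holds the Lmbr1 promoter, had 0.0459 and 1.33 in ESC, 5.46 and 4.73 in NPC, 0.299 in tSBE6-Vp64, 3.11 in tSBE2-Vp64, and 0.85 and 1.04 in tSBE(6+2-Vp64) and rose by log2 4.32 (SE 0.56, adjusted p = 9.67e-12 by limma). The element pair Mnx1 with the Lmbr1 promoter rose by 3.51 (SE 0.57, adjusted p = 8.86e-08), from 0.596 ± 0.757 (SD, n = 2) to 3.09 ± 0.209 (SD, n = 2), with 82.2% and 78.4% of the NPC values from Shh_491 with Shh_458. Mnx1 with the bin from 28695001 to 28732500 rose by 3.12 (SE 0.60, adjusted p = 1.89e-05 by limma). It had 0.00655 and 0.0825 in ESC, 0.324 and 0.180 in NPC, 0.0291 in tSBE6-Vp64, 0.252 in tSBE2-Vp64, and 0.0912 and 0.265 in tSBE(6+2-Vp64). It is called the Rbm33 bin, since the position of Rbm33, an RNA-binding protein gene, lies at its edge. Its high pair, Shh_494 with Shh_128 (28723250 to 28724961), lies outside the Rbm33 element stretch (28675001 to 28715000). With that stretch Mnx1 did not rise in NPC (0.00380 in ESC, 0.00257 in NPC, log2 -0.25, adjusted p = 0.999 by limma). In all 5 contacts that rose, both NPC replicates lay above both ESC replicates.

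With the 21 pairs left out, 0 bin pairs of these windows passed in NPC. With each contact's own highest fragment pair left out, 1 bin pair passed, alongside 1 element pair. That bin pair was not among the 4. Of the 4, those of Nom1 then differed from ESC by log2 0.013 and 0.29, and those of Mnx1 lay below ESC without passing. The spread used in the test came wholly from the trend over all contacts, although the ESC replicates of the Mnx1 contacts differed many times over; with robust variance moderation, added after the values were seen, the adjusted p of Mnx1 with the Lmbr1 promoter was 0.760, of its bin 0.732 and of the Rbm33 bin 0.403, while the Nom1 bin pairs kept 8.04e-22 and 2.25e-09. The count of 4 was 2 without ESC replicate 1, 1 without tSBE(6+2-Vp64) replicate 1 and 2 without its replicate 2, which enter only the shared spread. The element pair did not pass without ESC replicate 1 or without either replicate of tSBE(6+2-Vp64) (0 in each).

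In tSBE2-Vp64 there was 1 replicate, and its spread was taken to be that of the other groups, so the adjusted p values have no check within the group. The same 4 bin pairs and the same element pair lay higher past the threshold by limma and 0 lower, with 4 bin pairs at an unadjusted p under 0.05; over all 1168 contacts 1.88% passed as higher and 0% as lower. Mnx1 with the bin of the Lmbr1 promoter was 3.11 (log2 3.61, SE 0.69, adjusted p = 4.19e-05), and the element pair 1.87 (log2 2.80, SE 0.70, adjusted p = 0.00480). Nom1 with the bin between Shh and SBE6 was 0.0780 (log2 3.36, SE 0.74, adjusted p = 7.50e-04) and with the bin between Insig1 and En2 0.166 (log2 3.34, SE 0.74, adjusted p = 7.56e-04). Mnx1 with the Rbm33 bin was 0.252 (log2 3.18, SE 0.73, adjusted p = 0.00151). With robust variance moderation the 3 Mnx1 calls were lost, each at an adjusted p of 0.999, and the count was 2; it was 1 without ESC replicate 1 and 0 without either tSBE(6+2-Vp64) replicate. With 1 replicate left out at a time, the element pair passed only without ESC replicate 2. Without the 21 pairs it was 0. The median over the 89 bin pairs was log2 0.063, and over all contacts -0.058.

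In tSBE(6+2-Vp64), 3 of the 89 bin pairs rose and 0 fell by limma (5 at an unadjusted p under 0.05), and 0 of the 24 element pairs passed, with 2 at an unadjusted p under 0.05. Over all 1168 contacts 1.46% rose and 0% fell. Nom1 with the bin between Shh and SBE6 rose by log2 4.33 (SE 0.60, adjusted p = 1.09e-09), Nom1 with the bin between Insig1 and En2 by 2.33 (SE 0.61, adjusted p = 0.0108) and Mnx1 with the Rbm33 bin by 2.50 (SE 0.60, adjusted p = 0.00470); with robust variance moderation the last was lost, at an adjusted p of 0.997. Mnx1 with the bin of the Lmbr1 promoter had 0.85 and 1.04, between the ESC replicates (log2 1.89, adjusted p = 0.0511 by limma). The count was 1 without ESC replicate 1, without either NPC replicate or without tSBE(6+2-Vp64) replicate 1, 0 without tSBE(6+2-Vp64) replicate 2, and 0 without the library that stands apart; without ESC replicate 2, 1 element pair passed. Without the 21 pairs it was 0.

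In tSBE6-Vp64, with 1 replicate, 0 of the 89 bin pairs and 0 of the 24 element pairs passed by limma, with 2 and 0 at an unadjusted p under 0.05; over all 1168 contacts 0.0856% passed as higher and 0% as lower. The 3 smallest p values belonged to Nom1 with the bin between Shh and SBE6 (0.0367, above both ESC replicates, a log2 difference of 2.33 with SE 0.74 and limma adjusted p = 0.983), Nom1 with the bin from 29370001 to 29407500 (0.00206 against 0.00299 and 0.0351 in ESC, log2 -1.62, SE 0.76, adjusted p = 0.998), and Mnx1 with the bin from 29707501 to 29745000, beside the Nom1 window (0.0790 against 0.0613 and 0.535, log2 -1.18, SE 0.72, adjusted p = 0.998). The highest pair of the second was Shh_482 with Shh_349, and of the third Shh_491 with Shh_460. Without ESC replicate 1, 1 bin pair passed, Mnx1 with the bin from 29707501, as lower (log2 -2.72, adjusted p = 0.0220 by limma). The median over the 89 was 0.11, against 0.28 over all contacts. Higher than both ESC replicates were 27 of the 113 contacts of these windows (23.9%), against 46.4% of all 1168, and lower were 31 (27.4%), against 14.6%; the difference between these shares was not tested.

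Among themselves, the fragments of each window differed widely. Without the 21 pairs, the summed signal of a fragment with everything outside its window, as the mean of the 5 groups, ran from 0.603 (Shh_476) to 3.51 per 1000 (Shh_470) in the Nom1 window, with a median of 1.30. In the Mnx1 window it ran from 0.145 (Shh_495) to 5.32 (Shh_493), with a median of 1.70. Shh_491, so prominent in the high pairs, then had 2.73, and Shh_494 1.79. Fragment length ran from 133 to 9647 bases, and its Spearman rho with the signal was 0.333 over the 10 Nom1 fragments and -0.333 over the 10 Mnx1 fragments, given as a description.

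The spread of signal over pairs also set the windows apart between libraries. The 5 highest of its pairs held 93.5% of the Mnx1 window's signal in NPC replicate 1, technical replicate 1 and 9.18% in ESC replicate 1. For the Nom1 window they held 52.2% and 10.6%. ESC replicate 2 had 75.3% for Mnx1, nearer to NPC than to the other ESC replicate.

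With all pairs, the element windows whose summed signal followed the Mnx1 window most closely over the 8 replicates were the Lmbr1 promoter (Pearson r of log2 values 0.997), SBE6 (0.863) and, far behind, Shh (0.0677). The Lmbr1 promoter shares the highest pairs with Mnx1, so the first is in part the same signal. Without the 21 pairs the order was another: Ube3c (0.994), Nom1 (0.979) and SBE6 (0.961) led, and the Lmbr1 promoter had 0.872. With all pairs the Nom1 window was followed most closely by Insig1 (0.912), ZRS (0.803) and Rnf32 (0.680). Without the 21 pairs Mnx1 (0.979, from -0.0601), Ube3c (0.964) and the Lmbr1 promoter (0.947) led, and Insig1 was lowest (0.742). The 8 points share library totals, and the values are given without a test.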

How the data were processed

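5C libraries of 5 groups were analysed as 8 biological replicates from 11 libraries. The authors' deposited matrices hold a signal per pair of HindIII fragments, its reads scaled to 1000 per library; the build is mm9 per the submitters' processing notes, and aligner and filters were not given in the sources used here. Depth was taken from the step of the deposited signal: all values up to 20 steps lay within 0.05 step of a whole multiple in each library, and 83.7% (tSBE6-Vp64) to 100% of all values above 0 did, so read totals are approximate. Each library was rescaled to 1000 over the 341 fragments shared by all files; technical replicates were averaged, and the NPC library deposited under 2 labels was counted once. Contacts above 0 in at least 2 replicates were tested with limma 3.58.1 (R 4.3.3, mean-variance trend, two-sided, all groups in 1 fit) on log2(mean signal + 0.00273), the 5th percentile of bin pairs above 0, with Benjamini-Hochberg adjustment over all 1168 contacts at 0.05. Adding 0.00273 understates differences of weak contacts. The spread came wholly from the trend, so a contact whose replicates differ more than others of its level is not given a wider error, and groups of 1 replicate borrow it. The labels name biological replicates but not separate cultures, so p-values measure the spread between these samples, which may be technical. Equal replicate numbers were not treated as pairs. Same-numbered deviations correlated at -0.085 between ESC and NPC and 0.0034 between NPC and tSBE(6+2-Vp64), but at 0.41 between ESC and tSBE(6+2-Vp64). The fit with the replicate number as a block, given below, allows for such a shared part. Named were Nom1 with Mnx1, both windows with 12 other elements, up to 5 passing contacts in each direction or, with none, the 3 of smallest p, and the 5 highest fragment pairs of each window. Elements were placed from knowledge of the locus; members and lists were chosen with earlier results of these data known. Scripts used Python 3.11.15, numpy 2.4.6, pandas 2.3.3 and scipy 1.17.1, and the fit was tested on simulated data. The simulated data had the same spread for every contact and replicate. They therefore cannot show how often contacts whose replicates differ widely, such as those of Mnx1, pass wrongly. Bin width, pseudocount, filter, normalization, summary, block and replicates left out were varied.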

Additional observations from a re-analysis of the deposited data

Results flagged for a closer look

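Each value here belongs to technical replicate 1 of tSBE(6+2-Vp64) replicate 1, the library in which 99.1% of the windows' pairs were above 0, and lay apart from the other 3 libraries of its group. In that group 27 contacts and shares were examined. A rate of about 1 in 20 so far out by chance would hold only for separate libraries and separate measures. Here the libraries include technical replicates and all flagged values come from 1 library, so that rate does not apply to them as a set. Nom1 with SBE2 was 0.0182 there, with the nearest of the other libraries at 0.00492. Nom1 with ZRS was 0.0245, with the nearest at 0.00780. Mnx1 with En2 was 0.0127, with the nearest at 0.00463. Mnx1 with SBE2 was 0.0170 against 0.00750, Mnx1 with Rnf32 0.0195 against 0.00489, and Mnx1 with ZRS 0.0233 against 0.00654. The part of this library in the contacts of replicate 1 was tested only by leaving it out, as given among the processing results.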

How the results depend on the processing

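The counts of Nom1 and Mnx1 contacts past the threshold moved with the settings. With 20-kb bins the grid was not laid from the split and 3599 contacts were tested, so its counts have another base than those of the 89 bin pairs. The count of 4 bin pairs higher in NPC became 2 with 20-kb bins and 1 with quantile normalization. With the mean of log2 over fragment pairs it was 0. It was 1 without each contact's highest fragment pair, a bin pair outside the 4, and 0 without the long-range pairs. It was 1 as observed over expected by distance, 2 without the library that stands apart and 2 with robust moderation. Leaving out 1 replicate gave 1 to 5. The 1 element pair of NPC became 0 in all of these except without the highest fragment pair, and also with technical replicates as columns and without Shh_491 (leave-one-out 0 to 1). For tSBE2-Vp64 the 4 bin pairs became 0 with 20-kb bins, quantile normalization, the mean of log2, without the highest or the long-range pairs, over expected, with technical replicates as columns and without the library that stands apart, and 2 with robust moderation (leave-one-out 0 to 5); its element pair became 0 in all of these and without Shh_491 (leave-one-out 0 to 1). For tSBE(6+2-Vp64) the 3 bin pairs became 0 with quantile normalization, the mean of log2, without the highest or the long-range pairs, over expected and without the library that stands apart, and 1 with technical replicates as columns (leave-one-out 0 to 4); its element pairs ranged from 0 to 1 and the bin pairs of tSBE6-Vp64 from 0 to 1 over left-out replicates. Leaving out that library or Shh_491 and robust moderation were chosen after seeing the data. Where no pair or fragment was removed, the cause was not tested.

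Without the long-range pairs the share of the Nom1 window was 1.34% in NPC, 1.99% in tSBE6-Vp64 and 1.60% in tSBE2-Vp64, and that of the Mnx1 window 1.5% in NPC, 2.17% in tSBE6-Vp64, 1.88% in tSBE2-Vp64 and 2.21% in tSBE(6+2-Vp64).

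Among contacts that had passed, the log2 difference from ESC turned as follows. In NPC, Mnx1 with the Lmbr1 promoter was -1.44 with the mean of log2 and -1.0 without Shh_491. Mnx1 with the bin of the Lmbr1 promoter was -1.68 with the mean of log2, -1.25 without its highest pair, -0.61 without the long-range pairs and -1.18 without Shh_491. Mnx1 with the Rbm33 bin was -0.74 with the mean of log2 and -0.41 without its highest pair. In tSBE2-Vp64, Mnx1 with the Lmbr1 promoter was -0.15 with the mean of log2, -0.22 without the long-range pairs and -0.62 without Shh_491, and with its bin -0.55 without the highest pair, -0.15 without the long-range pairs and -0.67 without Shh_491. Nom1 with the bin between Insig1 and En2 was -0.13 without its highest pair. In tSBE(6+2-Vp64), Mnx1 with the Rbm33 bin was -0.22 without its highest pair and -0.14 without the long-range pairs.

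Nom1 with Mnx1 stayed below ESC in NPC in 23 of 23 alternatives (-1.52 to -0.52) and passed the threshold in none. Of 107 contacts named without passing, 102 passed under no alternative. Their directions carry no call: 94 of the 107 changed sign under at least 1 alternative, and without the long-range pairs 11 of 25 in NPC, 2 of 30 in tSBE6-Vp64, 9 of 25 in tSBE2-Vp64 and 2 of 27 in tSBE(6+2-Vp64) did. With the replicate number as a block, 5 bin pairs passed in NPC, 0 in tSBE6-Vp64, 4 in tSBE2-Vp64 and 4 in tSBE(6+2-Vp64), and Nom1 with Mnx1 in NPC was -1.17; the block moved no count by over 1.5 times. The count test on recovered reads was not run, since too few values came out as whole reads (83.7% in tSBE6-Vp64). Depth limits the weak contacts: down to 26.1% of the windows' pairs were above 0 in a library.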
